A study of Mus musculus with 30 samples.

Results

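MCA-948 and MCA-970 are primary fibrosarcoma cell lines, each grown from a tumor that the carcinogen 3-methylcholanthrene had induced in a mouse, and both are labelled as sensitive to natural killer (NK) cells. All tumors of the series whose titles name either line were taken, which gave 14 of the 30 tumors: 8 of MCA-948 and 6 of MCA-970. Each tumor had grown from transplanted cells in a mouse, and hematopoietic cells were removed with beads against CD45 before the RNA of the remaining cells was sequenced. The labels give all 14 tumors the C57BL/6 background, growth in C57BL/6 mice and the mouse strain Ncr1Cre R26DTA, and state no treatment, time or age. By its name, that strain carries a Cre recombinase driven from the Ncr1 gene, which encodes NKp46 of NK cells and related innate lymphoid cells, and a diphtheria toxin A allele that Cre switches on. The design text speaks of both wild-type and NK cell-deficient hosts. The titles add a letter (W or a) and a short code, such as a-2G, and the labels do not explain the letter, which was used only as a covariate or to split the tumors. Each line stands for a single primary tumor. Unless another fit is named, the p-values of genes measure the spread between tumors of the same line, estimated over all 30 tumors of 5 lines. They do not measure the spread between sensitive lines in general. Nothing in the labels says whether tumors came from separate animals.

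Methylcholanthrene is metabolized to DNA adducts, and each sarcoma it induces carries its own mutations, rearrangements and antigens. NK cells read the balance of ligands on such a cell. MHC class I molecules engage inhibitory receptors, while stress-induced ligands of NKG2D (Rae-1, MULT1 and H60 in the mouse), ligands of DNAM-1 and death receptors act the other way. Interferons raise MHC class I and antigen processing genes through factors that include IRF1 and NLRC5. The comparison asks how far a pair of lines with the same NK phenotype label differ in these genes and in the tissue programs that mark a fibrosarcoma.

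The tumors were sequenced to between 29765480 and 46537062 counts on genes in MCA-948 (median 37645606) and between 27745104 and 43696938 in MCA-970 (median 33765952). The totals did not differ beyond the spread between tumors (exact two-sided permutation test, p = 0.51). Values below are counts per 1000000 counts of the library (CPM), scaled by the trimmed mean of M values (TMM) and with no correction for gene length, so levels are compared between tumors and not between genes. All 6 MCA-970 tumors and the MCA-948 tumors a-2G and a-R carry library numbers of 1 series, called series 2 here, and the other 6 MCA-948 tumors carry numbers of series 3. Counts and calls were therefore also taken from series 2 alone (2 tumors against 6), and the text names the genes described here that lost their call there. Both MCA-948 tumors of series 2 carry the letter a, whereas 3 of the MCA-970 tumors carry W and 3 carry a. A call lost in series 2 alone can thus not be credited to the series rather than to the letter or to the few tumors. Tumors of the same line correlated between 0.97 and 0.99 over log2 CPM, those of different lines between 0.90 and 0.94, and MCA-948 tumors of different series between 0.97 and 0.99.

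The labelled tissue was checked against defining markers. The summed level of the 16 fibroblast and sarcoma markers ran from 17276 to 25486 CPM in MCA-948. In MCA-970 the sum ran from 50571 to 70002 CPM. All 16 passed the filter on low counts, but the filter was applied over the tumors of all lines together. Passing it therefore does not show that a marker was expressed in MCA-948 or in MCA-970. The mesenchymal filament gene Vim stood between 3734 and 6145 CPM (median 4624) in MCA-948 and between 2819 and 4068 CPM (median 3446) in MCA-970. The 26 leukocyte markers summed to only 33 to 164 CPM in MCA-948 and 35.7 to 406 CPM in MCA-970. Ptprc, which encodes CD45, was highest in the MCA-970 tumors W-1D and W-R (23 and 14.8 CPM, against at most 9.18 CPM in any MCA-948 tumor), and the T cell gene Cd3e stayed at or below 0.174 CPM in every tumor. The 12 endothelial markers summed to 41.1 to 642 CPM in MCA-948, with the highest sum in a-R, and to 309 to 672 CPM in MCA-970. In bulk RNA, fewer cells of a type and less RNA per cell cannot be told apart.

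Of 16862 genes tested, 1626 were higher in MCA-948 (9.64% of those tested) and 3333 were lower (19.8%), that is, 4959 genes (29.4%) had an adjusted p under 0.05 and a log2 fold change of at least 1 in edgeR's quasi-likelihood test. Such genes are referred to as called. A value in brackets after a gene or list, with no unit, is the log2 fold change of MCA-948 over MCA-970, and one that did not pass is given as a value only. The median log2 fold change over all genes tested was -0.05. This median and the shares of 9.64% higher and 19.8% lower are the values to set beside the gene lists below. A difference of at least 10-fold was found for 745 called genes, of which 92 were higher in MCA-948 and 653 lower. In series 2 alone, 3735 of 15798 genes were called (23.6%). Of the 4462 called genes that could be tested there, 4455 had the same direction and 3212 were called again.

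The genes that differed most in either direction included transcription factor and surface protein genes with near-absent RNA in 1 line. Msln, which encodes the mesothelial surface protein mesothelin, stood between 6.19 and 34.2 CPM (median 10.1) in the MCA-948 tumors. In MCA-970 only 2 counts of Msln were seen in all 6 tumors together, a ratio of pooled levels of 1472 with a 95% interval of 407 to 12162 (exact binomial, counting error only). Dynap, a membrane protein gene, was between 19 and 46.1 CPM (median 31.7) in MCA-948 and at most 0.0932 CPM in MCA-970. Sox2, a transcription factor of pluripotent and neural cells, was between 20.3 and 42.4 CPM (median 27.1) in MCA-948, and its highest MCA-970 value was 0.515 CPM in W-2D. The T-box factor gene Tbx20, known from the heart, was between 31 and 53.2 CPM (median 42.1) in MCA-948 and between 0.186 and 1.69 CPM (median 0.471) in MCA-970. Lhx8, a LIM homeobox factor of the forebrain and jaw, was between 7.13 and 27.4 CPM (median 13.9) in MCA-948 and at most 0.46 CPM in MCA-970. Bmp3 (log2 fold change 6.28), Mtus2 (7.52) and Hdx (5.03) completed the genes outside chromosome 6 in this group. The remaining 2 of the 10, Met and Capza2 on chromosome 6, were not rare in MCA-970, with lowest values of 93.5 and 263 CPM. The rule for these 10 genes required that no MCA-948 tumor overlapped with any MCA-970 tumor, which was the case for 43.8% of all genes tested.

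**Figure D1:**
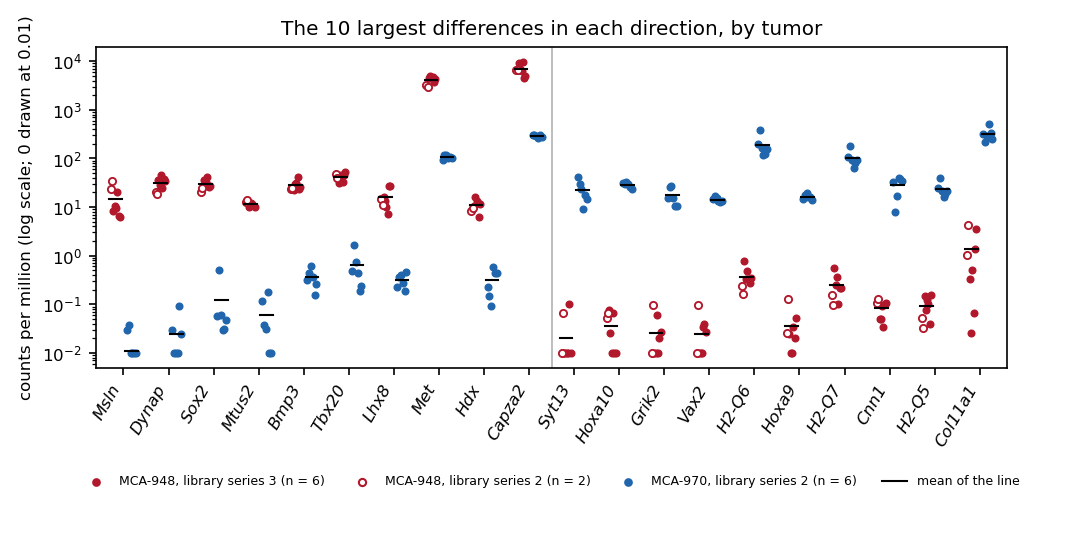
CPM on a log scale in every tumor for the 10 called genes of greatest log2 fold change in each direction among those that had a mean of at least 10 CPM in the higher line and no overlap between lines. Points are tumors, open circles the 2 MCA-948 tumors of library series 2, and black lines means. Msln, Dynap and Lhx8 lie at or near 0 in MCA-970, whereas Met and Capza2 start at 93.5 and 263 CPM there, and the lack of overlap follows from how the genes were chosen.

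In the other direction, Syt13, a synaptotagmin of vesicle trafficking, was between 8.97 and 41.1 CPM (median 20.3) in MCA-970 and had no count in 6 of the 8 MCA-948 tumors. The kainate receptor gene Grik2 was between 10.3 and 26.9 CPM (median 15.5) in MCA-970 and at most 0.0982 CPM in MCA-948. Vax2, a homeobox factor of the ventral eye, was between 12.6 and 16.6 CPM (median 14) in MCA-970 and also at most 0.0982 CPM in MCA-948. Hoxa10, Hoxa9, Col11a1, Cnn1 and the class I genes H2-Q5, H2-Q6 and H2-Q7 made up the rest of the 10 and are described with their groups. Among abundant genes, with a mean of at least 100 CPM in both lines, the largest decreases were those of the matrix genes Tnc, Spp1, Fstl1 and Postn and of Pla2g7, a secreted phospholipase that degrades platelet-activating factor. Pla2g7 was between 117 and 215 CPM (median 142) in MCA-948 and between 881 and 1101 CPM (median 1033) in MCA-970, a log2 fold change of -2.71 (SE 0.12, adjusted p = 2.94e-17). Fstl1, a secreted follistatin-like glycoprotein, was between 219 and 371 CPM (median 266) in MCA-948 and between 1882 and 2955 CPM (median 2165) in MCA-970.

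The abundant genes with the largest increases were Met, Capza2, Tes, Cav1 and Myc, and the first 4 are neighbors on chromosome 6. Met, the receptor tyrosine kinase for hepatocyte growth factor (chr6:17463800-17573980, GRCm38, plus strand), was between 2961 and 4876 CPM (median 4426) in MCA-948 and between 93.5 and 118 CPM (median 106) in MCA-970. Its log2 fold change was 5.28 (SE 0.55, adjusted p = 1.74e-09), and the values of the lines lay far apart. Cav1, which encodes caveolin-1 of the membrane invaginations called caveolae (chr6:17306335-17341452), was between 8616 and 15656 CPM (median 12146) in MCA-948 and between 551 and 896 CPM (median 675) in MCA-970. Its neighbor Cav2 (chr6:17281185-17289115) was between 796 and 1949 CPM (median 1174) in MCA-948 and between 48.2 and 80.3 CPM (median 55.4) in MCA-970. Tes (chr6:17065149-17105828), a LIM protein of focal adhesions, was between 4060.5 and 6635 CPM (median 5687) in MCA-948 and between 272 and 333 CPM (median 305) in MCA-970. Capza2 (chr6:17636234-17666972), a subunit of the protein that caps actin filaments, was between 4591 and 9829.6 CPM (median 6676) in MCA-948 and between 263 and 309 CPM (median 291) in MCA-970. St7 (chr6:17692933-17943025) was between 317 and 603 CPM (median 417) in MCA-948 and between 26.9 and 32 CPM (median 29.7) in MCA-970. All 6 differed in the same direction by log2 fold changes between 3.84 and 5.28, from 14.4-fold for St7 to 38.8-fold for Met.

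From the first base of Tes to the last base of St7, a stretch of 877.9 kb (chr6:17065149-17943025, GRCm38), 13 genes were tested, and all 13 were called higher in MCA-948. The other 7 are noncoding or predicted genes, several of which overlap the protein-coding ones, and because the strand setting of the counting is not stated their reads cannot be told apart from those of their hosts. The 6 protein-coding genes together held 2.4% to 3.86% of all counts in MCA-948 (median 3.01%) and 0.127% to 0.17% in MCA-970 (median 0.14%). Downstream of St7 no gene tested within 1500 kb of Met was called higher, but most protein-coding genes there were rare. Wnt2 had means of 0.541 CPM in MCA-948 and 0.28 CPM in MCA-970, and Cftr of 0.574 and 1.4 CPM. Cttnbp2 had means of 0.132 and 8.92 CPM. Lsm8, with means of 34.5 and 51.3 CPM, starts 1385 kb from the start of Met. The end of the increase cannot be placed from genes this rare or this far away. There, Wnt2 did not pass the test (log2 fold change 0.95, adjusted p = 0.0675), the chloride channel gene Cftr was lower (-1.29, adjusted p = 0.00101), Cttnbp2 was lower (-5.99, adjusted p = 6.04e-10), and Lsm8 did not reach the fold threshold (-0.57, adjusted p = 6.99e-06). Upstream of Tes, the noncoding gene Gm15473 and the transcription factor gene Tfec were tested in the window, and both were called higher. The antisense gene Gm4876 (chr6:17065010-17171833) begins just before Tes, covers all of it on the other strand and was called higher as well, so its reads cannot be told apart from those of Tes. Tfec was rare, with 2.17 CPM as its median in MCA-948 and 0.13 CPM in MCA-970 (log2 fold change 2.79). These flanking genes, and Pvt1 and Fam84b below, were chosen after their values had been seen, as was the window of 1500 kb on either side of Met. In the 3 other lines of the series the 6 genes had means below that of MCA-948, with Met at 89.2, 350.3 and 139.8 CPM and Capza2 at 239, 279 and 179.8 CPM in MCA-943, MCA-969 and MCA-972. In series 2 alone the log2 fold changes of the 6 genes ran from 3.83 (St7) to 4.89 (Met).

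Hgf, the ligand of the receptor that Met encodes, moved the other way. It was between 16.4 and 40.4 CPM (median 28.8) in MCA-948 and between 115 and 199.5 CPM (median 176) in MCA-970, a log2 fold change of -2.59 (SE 0.25, adjusted p = 3.31e-10).

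Myc, the growth-promoting transcription factor gene (chr15:61985391-61990374, GRCm38), was between 505 and 1625 CPM (median 689.5) in MCA-948 and between 103 and 168 CPM (median 133) in MCA-970. The log2 fold change was 2.62 (SE 0.34, adjusted p = 1.21e-07). The 2 MCA-948 tumors of series 2 held the highest values, 1191 CPM in a-2G and 1625 CPM in a-R, against at most 738 CPM in the 6 of series 3, and in series 2 alone the log2 fold change was 3.42. Its noncoding neighbor Pvt1 (chr15:62037986-62378096) was between 147 and 333 CPM (median 257) in MCA-948 and between 10.3 and 16.8 CPM (median 14.1) in MCA-970, with a log2 fold change of 4.15 (SE 0.26, adjusted p = 4.47e-14). Fam84b, the nearest protein-coding gene tested upstream of Myc, did not reach the fold threshold (-0.74, adjusted p = 0.0207). In this pair of genes, unlike the stretch on chromosome 6, another line was higher still, since the means of MCA-969 were 1310.5 CPM for Myc and 602 CPM for Pvt1.

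**Figure D2:**
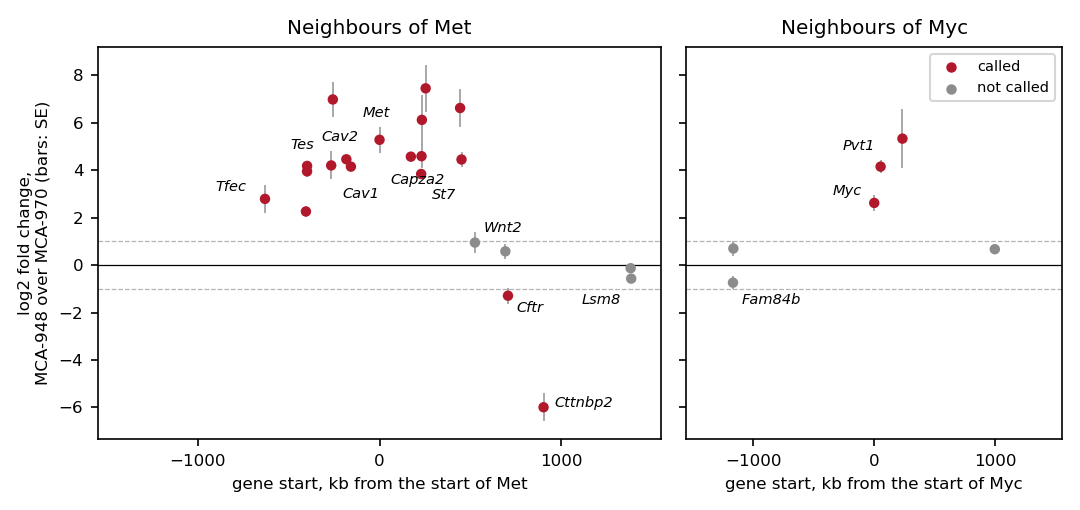
Log2 fold change (MCA-948 over MCA-970, bars show the standard error) of every gene tested within 1500 kb of the start of Met and of Myc, against the distance of its start from theirs in kb. All 13 genes from Tes to St7, the antisense gene Gm4876 that covers Tes, and Gm15473 and Tfec upstream of it are higher in MCA-948, while Wnt2 and Lsm8 downstream are not called and Cftr and Cttnbp2 are lower.

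MHC class I was lower in MCA-948. Of 24 genes of MHC class I and peptide loading, all were tested, 18 were called lower and none higher, with a median log2 fold change of -3.14 beside -0.05 over all genes. H2-K1, a classical class I heavy chain (chr17:33996017-34000347), was between 13.9 and 33.1 CPM (median 21.5) in MCA-948 and between 738 and 1449.7 CPM (median 1023) in MCA-970, and the lines were 46.5-fold apart on their means. H2-D1, the other classical heavy chain (chr17:35262730-35267499), was between 61 and 80.9 CPM (median 66.9) in MCA-948 and between 966 and 1964 CPM (median 1312) in MCA-970. B2m, the light chain shared by all class I molecules (chr2:122147686-122153083), was between 286 and 368 CPM (median 340.2) in MCA-948 and between 1593 and 2518 CPM (median 2047) in MCA-970, with a log2 fold change of -2.60 (SE 0.12, adjusted p = 2.61e-17). Nlrc5, the transactivator of class I genes, was between 0.203 and 0.973 CPM (median 0.433) in MCA-948 and between 20.6 and 35.5 CPM (median 22.7) in MCA-970. No MCA-948 tumor reached the lowest MCA-970 tumor in any of these 4 genes.

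The genes that make and load the peptides had the same direction. Tap1 and Tap2, the subunits of the peptide transporter, had log2 fold changes of -5.05 and -3.90, and the immunoproteasome subunits Psmb8 and Psmb9 of -5.21 and -4.95. Tapbp, which encodes the loading factor tapasin, was lower (-1.40, SE 0.14, adjusted p = 3.44e-10). The general chaperone gene Calr did not reach the fold threshold (-0.92), and neither did H2-T23, which encodes the nonclassical Qa-1 molecule read by NKG2A (-0.74). The H2-Q genes had the largest differences among the members named here, with H2-Q4 at 0.575 to 3.03 CPM in MCA-948 and 208 to 511 CPM in MCA-970, H2-Q6 at 0.164 to 0.774 against 118 to 384 CPM, H2-Q7 at 0.0982 to 0.549 against 63.9 to 183 CPM and H2-Q5, outside the list, at 0.0327 to 0.159 against 15.9 to 38.8 CPM. The H2-Q genes are near-identical copies whose reads may be split or dropped between them, so their separate values are uncertain. Of the 18 genes called, 17 were called again in series 2 alone, all 18 with the same direction.

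Interferon-stimulated genes were lower in MCA-948 as well. Of 44 such genes, 38 were called lower and none higher (median log2 fold change -2.65), and 36 of the 38 were called again in series 2 alone. Isg15, a ubiquitin-like modifier induced by interferon, was between 0.778 and 4.99 CPM (median 2.67) in MCA-948 and between 18.9 and 36.2 CPM (median 23) in MCA-970. Ifit1, which binds foreign RNA caps, was between 0.744 and 11.6 CPM (median 2.26) in MCA-948 and between 25.5 and 58.9 CPM (median 30.4) in MCA-970. Usp18, a brake on interferon receptor signaling, had a log2 fold change of -4.68 (SE 0.38, adjusted p = 9.31e-12). Irf7 and Irf1, transcription factors of the response, had log2 fold changes of -2.91 and -1.61. The GTPase genes Iigp1 (-4.40) and Gbp2 (-3.12) and the chemokine gene Cxcl9 (-4.28), which respond to interferon-gamma, were also lower. The MCA-970 tumor W-2D had the highest level of several of these genes, with Gbp2 at 212 CPM beside a median of 69.6, and without that tumor the median of the list was -2.43. Of the genes that sense interferon, only Ifngr1 and Jak2 are given here. Ifngr1, a chain of the interferon-gamma receptor, had a log2 fold change of -0.43 (adjusted p = 0.000103) and the kinase gene Jak2 of -0.48 (adjusted p = 0.000151). Both were thus lower in MCA-948 without reaching the fold threshold. Among the 6 genes of the list that were not called were the RNA sensor gene Ddx58 (-0.55) and Ifitm1 (0.51). The summed level of the leukocyte markers overlapped between the lines, and its part in these differences was not tested.

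The start regions of these genes can be set beside the difference. The motif GAAANNGAAA, a core of the interferon-stimulated response element bound by IRF factors, was searched on both strands in RefSeq promoters of GRCm38.p6, each 250 bases before to 50 bases after a gene's start. It was present in 22 of the 35 interferon-stimulated genes that had a promoter entry (62.9%), in 4 of 19 MHC class I and peptide loading genes (21.1%) and in 3.99% of the promoters of all 27025 symbols. Of the 38 interferon-stimulated genes called lower, 29 had an entry and 20 of these held the motif (69%). The 160 bases before the start are shown for Isg15 and Ifit1, because they were leading members of the list with repeated copies, and for B2m, because it is the common chain of class I. Capitals mark the motif on either strand, and overlapping copies run together.
Isg15 (chr4:156200819-156200978, minus strand): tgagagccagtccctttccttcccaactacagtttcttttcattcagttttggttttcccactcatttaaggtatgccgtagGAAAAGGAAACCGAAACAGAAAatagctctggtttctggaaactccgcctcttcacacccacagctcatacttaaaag
Ifit1 (chr19:34640729-34640888, plus strand): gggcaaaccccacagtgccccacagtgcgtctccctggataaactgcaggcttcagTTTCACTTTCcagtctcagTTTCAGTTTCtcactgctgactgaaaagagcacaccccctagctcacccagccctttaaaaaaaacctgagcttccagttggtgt
B2m (chr2:122147527-122147686, plus strand): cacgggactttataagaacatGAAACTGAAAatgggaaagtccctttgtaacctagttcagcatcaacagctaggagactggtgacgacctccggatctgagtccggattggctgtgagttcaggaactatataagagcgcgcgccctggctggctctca
Isg15 held 3 overlapping copies starting 78 bases before the transcription start, Ifit1 held 2 copies from 104 bases before it, and B2m held 1 copy from 139 bases before it. A match describes the letters only.

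**Figure D3:**
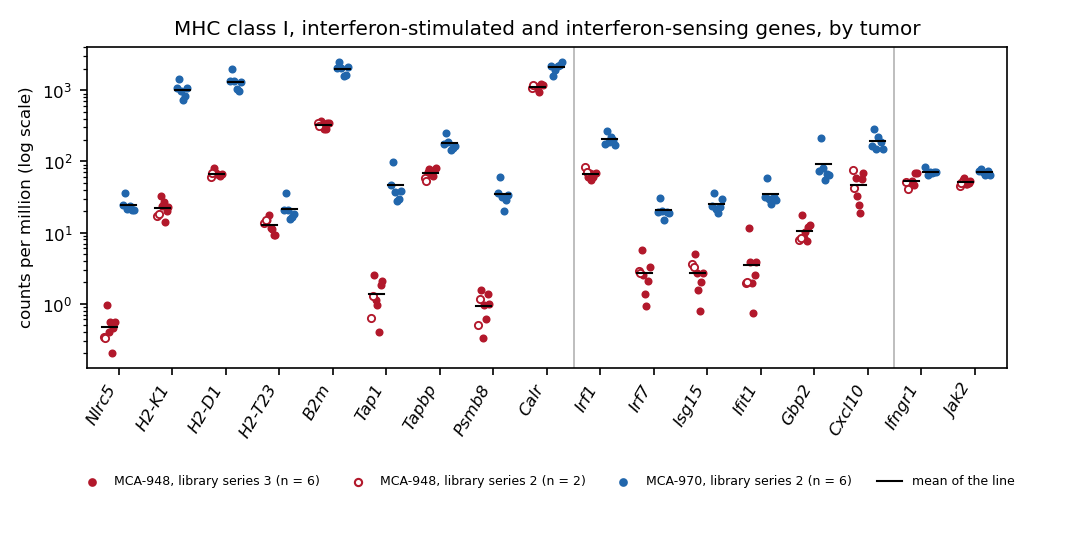
CPM on a log scale in every tumor for MHC class I genes (left), interferon-stimulated genes (middle) and interferon-sensing genes (right). Points are tumors, open circles the 2 MCA-948 tumors of series 2, black lines means. H2-K1, H2-D1, B2m, Nlrc5, Tap1 and Psmb8 show separated lines, while H2-T23 and Ifngr1 overlap between the lines and Ifngr1 and Jak2 have log2 fold changes of -0.43 and -0.48.

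Among the ligands that NK cells read directly, all genes called were lower in MCA-948. Of the NKG2D ligand list, 4 genes could be tested and 3 were called lower. Raet1d was between 0.0749 and 0.482 CPM (median 0.2) in MCA-948 and between 1.44 and 7.39 CPM (median 4.85) in MCA-970, Raet1e was between 0.235 and 1.6 CPM (median 0.418) in MCA-948 and between 1.86 and 5.31 CPM (median 3.53) in MCA-970, and H60b was below 1 CPM in every tumor. H60b was not called in series 2 alone (-1.82, adjusted p = 0.0979). Ulbp1, which encodes MULT1, did not reach the fold threshold and was between 33.9 and 47.8 CPM (median 43.1) in MCA-948 and between 24.1 and 32.3 CPM (median 26.8) in MCA-970 (log2 fold change 0.58, adjusted p = 2.63e-05). Most of the RNA of the list was Ulbp1. The summed level of the list was 34.6 to 49.2 CPM (median 43.6) in MCA-948 and 29.4 to 43.9 CPM (median 34.8) in MCA-970, so the sum was not lower in MCA-948. Raet1a, Raet1b, Raet1c and H60a of the list were not found among the gene names used here. Raet1 genes are close copies of each other, so their values are uncertain. Of 15 other ligands of NK cell receptors that were tested, 6 were called lower and none higher, including Cd200 (-2.79), the nectin gene Nectin3 (-1.77), Clec2d, the ligand of the NKR-P1B receptor (-1.03), and the adhesion molecule gene Icam1 (-1.29). Icam1 was not called in series 2 alone (-0.95, adjusted p = 0.106). Clec2d lay at the threshold and lost its call without the MCA-948 tumors W-2G or a-2G or the MCA-970 tumor W-1D (to -0.97). Pvr, the ligand of DNAM-1 and TIGIT, was not called (-0.28, adjusted p = 0.0365).

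Of 19 checkpoint ligands and adenosine enzymes, 13 were called lower and 2 higher (median -1.52). Nt5e, which encodes the adenosine-producing enzyme CD73, was between 16.5 and 44.8 CPM (median 36.1) in MCA-948 and between 139.8 and 230.2 CPM (median 207) in MCA-970. Cd274, which encodes PD-L1, was lower (-1.70, SE 0.35, adjusted p = 9.82e-05), as were Cd38 (-3.23), Lgals9 (-2.46) and Cd276 (-1.04). Cd276 lay at the threshold and lost its call without MCA-948 a-R, W-2G or a-2G or without MCA-970 a-1D (to -0.96). The 2 genes that were higher were Entpd2, an ATP-degrading ectoenzyme (3.70, SE 0.29, adjusted p = 6.26e-12), and Arg1, which encodes arginase 1 (2.09). Of 20 death receptors and granzyme inhibitors, 7 were called lower and none higher, among them Tnfrsf1a, the main TNF receptor (-1.30), Casp8 (-1.09), Tnfsf10, which encodes TRAIL (-2.74), and the serpin Serpinb6b (-2.95). The death receptor genes Fas (-0.98) and Tnfrsf10b (-0.88) did not reach the fold threshold in the fit of all tumors and did in series 2 alone (-1.39 and -1.17).

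Secreted signals to leukocytes were lower in MCA-948 for the most part. Of 26 cytokine genes tested, 16 were called lower and none higher (median -1.56). Ptgs2, the inducible cyclooxygenase of prostaglandin E2 synthesis, was between 52.5 and 144 CPM (median 89.1) in MCA-948 and between 638 and 1310.4 CPM (median 844) in MCA-970 (log2 fold change -3.25, SE 0.37, adjusted p = 8.71e-09). Lif (-3.53) and Il6 (-3.59), cytokines that signal through gp130, were lower, as were Csf1, the macrophage growth factor (-1.33), and Il15, which sustains NK cells (-1.71). Il33 was called in the fit of all tumors (-1.68) and not in series 2 alone (-0.89). Of 28 chemokine genes, 15 were called lower and 3 higher (median -1.19), and 10 of the 18 were called again in series 2 alone. Cxcl12, the ligand of CXCR4, was between 3.3 and 38.1 CPM (median 21.8) in MCA-948 and between 286 and 546 CPM (median 369) in MCA-970, and Cx3cl1, which encodes fractalkine, was between 3.27 and 6.96 CPM (median 3.94) in MCA-948 and between 78.5 and 123 CPM (median 90.1) in MCA-970. Cxcl10 was lower (-2.03), while the neutrophil chemokine gene Cxcl5 was higher (2.76). The monocyte chemokine gene Ccl2 did not reach the threshold (-0.95), and Cxcl1 did so in the fit of all tumors (-1.26) but not in series 2 (-0.96). Cxcl9, Cxcl10 and Cxcl11 are members of both the chemokine and the interferon lists.

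Genes of the extracellular matrix were mostly lower in MCA-948. Of 38 collagen genes tested, 26 were called lower in MCA-948 and none higher (median -1.78), and 19 of the 24 that could be tested were called again in series 2. Col1a2, a chain of type I collagen, was between 559 and 2692 CPM (median 1614) in MCA-948 and between 6839 and 9940.0 CPM (median 7433) in MCA-970 (log2 fold change -2.31, SE 0.24, adjusted p = 1.28e-09), and its partner Col1a1 was between 1315 and 3540.1 CPM (median 2045) in MCA-948 and between 3279 and 6775 CPM (median 4956) in MCA-970 (-1.25). Col3a1 was called in the fit of all tumors (-1.09) and not in series 2 alone (-0.88). Col11a1, a fibril collagen of cartilage, was between 0.0253 and 4.19 CPM (median 0.781) in MCA-948 and between 221 and 517 CPM (median 303) in MCA-970. Col6a3 was also lower (-2.27). The basement membrane collagens Col4a1 and Col4a2, which endothelial cells make too, were lower (-2.12 and -2.58) but varied widely within MCA-948, from 60.8 CPM to 817 CPM for Col4a1. Col4a1 was highest in a-R, the tumor with the highest sum of endothelial markers, and it was not called in series 2 alone (-1.50, adjusted p = 0.0894). The part of endothelial cells in this was not tested.

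Fn1, which encodes fibronectin, was between 2467 and 4606 CPM (median 3647) in MCA-948 and between 14399.5 and 17615 CPM (median 16007) in MCA-970 (log2 fold change -2.16, SE 0.16, adjusted p = 9.33e-13). Tnc, which encodes tenascin-C of wound and tumor stroma, was between 268 and 1261 CPM (median 507) in MCA-948 and between 4419 and 10423 CPM (median 8293) in MCA-970, and Postn, which encodes periostin, was between 477 and 1636 CPM (median 1035) in MCA-948 and between 3463 and 12405 CPM (median 7945) in MCA-970. Of 58 proteoglycans and matrix glycoproteins, 35 were called lower and 4 higher (median -1.52), among them Thbs2 (-2.69), Fmod (-6.33), and Dcn (-1.35), which was not called in series 2 alone (-0.97). Fmod was rare in MCA-948, and the MCA-970 tumors alone spread from 0.294 to 68.1 CPM. Sparc (-1.79) and Bgn (adjusted p = 1.2e-07) were lower too, but Bgn lay at the threshold and lost its call in series 2 alone (-0.87) and in 6 of the 14 fits that leave out 1 tumor. Acan, the aggrecan of cartilage, was higher in MCA-948 (11.1 to 37.1 CPM against 0.0736 to 8.97 CPM). Acan was not called in series 2 alone (2.56, adjusted p = 0.082). Of 40 matrix proteases and inhibitors, 21 were called lower and none higher, led by the inhibitor Serpine2 (-4.33), the stromelysin Mmp3 (-4.10) and Timp3 (-3.36). Mmp9 was lower (-2.59), Timp1 did not reach the threshold (-0.94), and Mmp2 did so only in the fit with series 3 (-1.29, and -0.73 in series 2 alone). P4ha2, an enzyme that hydroxylates collagen prolines, was lower (-2.13, SE 0.17, adjusted p = 1.23e-11).

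Cell-matrix receptors and basement membrane laminins went both ways. Of 33 integrin, laminin and nidogen genes, 11 were called lower and 5 higher (median -0.60). Itga8 was between 0.152 and 0.638 CPM (median 0.317) in MCA-948 and between 30 and 52.6 CPM (median 40) in MCA-970, Itga11, a collagen receptor chain, was between 0.0917 and 1.55 CPM (median 0.527) in MCA-948 and between 7.43 and 75.8 CPM (median 18.6) in MCA-970, and Lama2 was lower (-3.94). Itgb7, known from lymphocyte homing, was higher (29.3 to 59.7 CPM against 1.32 to 3.35 CPM), as were Lama3 (1.90) and its receptor chain Itga3 (1.32). Itgb1, the common beta chain, did not reach the fold threshold (-0.46).

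Of the 16 fibroblast and sarcoma markers, 10 were called lower and none higher (median -1.18). Thy1, a surface marker of fibroblasts, was between 12.7 and 56.9 CPM (median 31) in MCA-948 and between 632 and 938 CPM (median 718) in MCA-970. Pdgfrb was lower (-1.10), Pdgfra (-0.79), Prrx1 (-0.55) and Twist1 (-0.35) did not reach the fold threshold, and Vim leaned the other way without reaching it (0.44). Of 12 smooth muscle and myofibroblast genes, 6 were called lower and none higher (median -1.03). Acta2, the smooth muscle actin of myofibroblasts, was between 5.89 and 31.1 CPM (median 17) in MCA-948 and between 101 and 299 CPM (median 241) in MCA-970, Tagln was between 1.01 and 9.95 CPM (median 3.23) in MCA-948 and between 20.4 and 109 CPM (median 89) in MCA-970, and Cnn1, which encodes calponin, was between 0.0338 and 0.131 CPM (median 0.096) in MCA-948 and between 7.76 and 39.4 CPM (median 33) in MCA-970. The light chain gene Myl9 was lower as well (0.71 to 4.91 CPM against 14.1 to 52.2 CPM), whereas Cald1 (-0.41) and Tpm1 (-0.19), which many cell types express, did not reach the threshold. Of the pericyte and mural markers, which overlap with this program, 4 of 8 were called lower and 1 higher, and none of the 5 was called in series 2 alone. Rgs5, one of them, was 52.2 CPM in a-R and 3.6 CPM in a-2G.

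**Figure D4:**
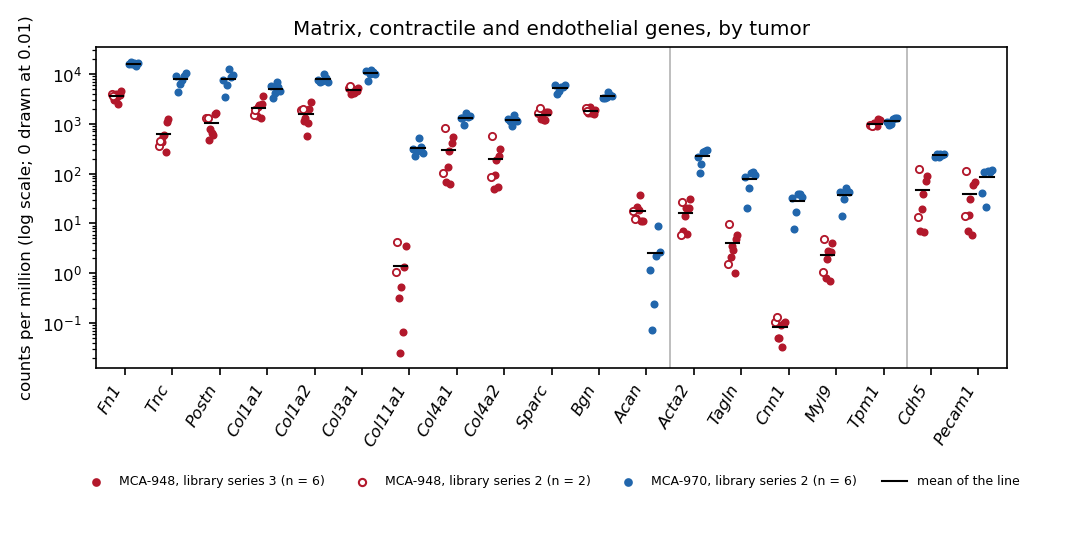
CPM on a log scale in every tumor for matrix genes (left), contractile genes (middle) and the endothelial genes Cdh5 and Pecam1 (right). Points are tumors, open circles the 2 MCA-948 tumors of series 2, black lines means. Fn1, Tnc, Col1a2 and Cnn1 separate the lines, Tpm1 overlaps, and Col4a1, Col4a2, Cdh5 and Pecam1 spread widely within MCA-948 with a-R at the top.

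The positional code of the lines differed. Hox genes keep a record of where along the body axis a mesenchymal cell came from. Of 30 Hox genes tested, 14 were called lower and 6 higher in MCA-948. All 10 HoxA genes tested were called lower, with a median log2 fold change of -4.57, and all 5 HoxD genes were called higher, with a median of 1.47. Hoxa10 (chr6:52231197-52240854) was between 23.5 and 32.4 CPM (median 30) in MCA-970 and at most 0.0749 CPM in MCA-948, and Hoxa9 was between 13.9 and 19.8 CPM (median 16) against at most 0.131 CPM. Hoxa11 had no count in any MCA-948 tumor and was between 0.987 and 1.86 CPM (median 1.56) in MCA-970, at least 18-fold higher when 3 counts are allowed in each MCA-948 library. Among the HoxD genes, Hoxd8 was between 37.6 and 41.2 CPM (median 38.9) in MCA-948 and between 15.6 and 20.2 CPM (median 18) in MCA-970, Hoxd9 was between 5.78 and 11.7 CPM (median 8.59) in MCA-948 and between 2.18 and 3.75 CPM (median 2.48) in MCA-970, and Hoxd10 was between 0.678 and 1.77 CPM (median 1.29) in MCA-948 and between 0.153 and 0.605 CPM (median 0.317) in MCA-970. Hoxd4 and Hoxd3 were below 1 CPM in every tumor. Hoxd3, with 20 counts in all MCA-970 tumors together, could not be tested in series 2 alone and lost its call with library series as a covariate (0.86, adjusted p = 0.214). Hoxd4 was not called in series 2 alone (0.88, adjusted p = 0.185) or without any of the MCA-948 tumors W-1G, a-1G or a-R or the MCA-970 tumors W-2D, W-R or a-1D (log2 fold change down to 0.88). In the HoxB and HoxC clusters most genes did not pass, with Hoxb9 lower (-4.58), Hoxc4 higher (1.34), and Hoxc6 (0.21) and Hoxc10 (0.47) not called. Hoxa10 and Hoxa9 were also close to 0 in MCA-943 and MCA-972 and present in MCA-969.

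Of 30 limb and trunk positional factors tested, 12 were called lower and 3 higher (median -0.81). Zic1, a factor of dorsal mesoderm and neural tube, was between 20.4 and 28.1 CPM (median 25.3) in MCA-970 and at most 0.502 CPM in MCA-948. Hand2, a factor of limb bud and branchial arches, was between 4.67 and 7.16 CPM (median 6.06) in MCA-970 and at most 0.104 CPM in MCA-948. The related genes Foxf2 and Foxf1 moved apart, with Foxf2 higher (2.57, SE 0.43, adjusted p = 5.93e-06) and Foxf1 lower (-1.75, SE 0.16, adjusted p = 4.88e-11). Tbx15 did not reach the threshold (-0.51). Of 21 cartilage and bone genes, 13 were called lower and 2 higher (median -2.15). Spp1, which encodes osteopontin, was between 183 and 427 CPM (median 321) in MCA-948 and between 1949 and 3142 CPM (median 2813) in MCA-970, and Mgp, an inhibitor of calcification, was between 0.306 and 2.63 CPM (median 1.53) in MCA-948 and between 37.3 and 189 CPM (median 48.5) in MCA-970. Runx2, the osteoblast factor gene, was not called (0.24). In the skeletal muscle list 1 of 10 genes was called higher and 1 lower, 10% each beside 9.64% and 19.8% of all genes tested. The higher one was Ttn, which encodes titin (6.38 to 64.4 CPM against 0.994 to 2.39 CPM), and Myod1 had at most 0.0327 CPM in any tumor.

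Keratin and mesothelial genes were called higher more often than lower. Of 11 simple keratin and mesothelial genes tested, 6 were called higher in MCA-948 and 3 lower (median 1.85). Both shares (54.5% and 27.3%) exceeded those of all genes tested (9.64% and 19.8%), and 5 of the 11 had a negative log2 fold change. The members described here are among those called higher. Besides Msln, Krt18 was between 65.5 and 138 CPM (median 84.1) in MCA-948 and between 5.59 and 10.2 CPM (median 7.42) in MCA-970, and its partner keratin gene Krt8 was between 0.372 and 9.49 CPM (median 2.94) in MCA-948 and between 0 and 0.405 CPM (median 0.12) in MCA-970, with a slight overlap. The keratinocyte genes Krt5 and Krt14 stayed at or below 0.321 CPM in every tumor, and 1 of 3 keratinocyte markers tested was called higher. Of 18 regulators of epithelial-mesenchymal transition and cadherins, 7 were called lower and 1 higher, and the 7 include the mesenchymal cadherin gene Cdh11 and the repressor gene Snai1. Cdh11 was between 1.95 and 17.6 CPM (median 6.93) in MCA-948 and between 324 and 529 CPM (median 452) in MCA-970 (log2 fold change -5.72, SE 0.40, adjusted p = 4.98e-13). Within MCA-948, the 4 tumors with the letter a had 10 to 17.6 CPM and the 4 with the letter W had 1.95 to 3.85 CPM. Snai1 was lower in the fit of all tumors (-1.06), not in series 2 alone (-0.69), and fell below the threshold without MCA-970 a-1D (-0.96). Zeb1 (-0.18), Twist2 (-0.28) and Cdh2, which encodes N-cadherin (-0.26), were not called.

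Of 6 Schwann cell markers tested, 2 were called lower and 1 higher, among them Pmp22, which fibroblasts also express (-2.60), and Sox10 stayed at or below 0.101 CPM. Of 3 adipocyte markers tested, 2 were lower, including Fabp4 (-2.42), which capillary endothelium also expresses and which was not called in series 2 (-1.33, adjusted p = 0.204). Of 12 endothelial markers, 6 were called lower and none higher, and none of the 6 was called in series 2 alone. Pecam1 was 114 CPM in MCA-948 a-R and 13.8 CPM in a-2G, against 21 to 119 CPM in MCA-970, and it kept its call in only 5 of the 14 fits that leave out 1 tumor. Cdh5 was between 6.86 and 126 CPM (median 28.9) in MCA-948 and between 211 and 252 CPM (median 242) in MCA-970. Of 22 leukocyte markers tested, 3 were called lower and 1 higher. The neutrophil gene S100a8 (-4.08) and Klrb1c, which encodes NK1.1 (-2.40), were lower, and Eomes was higher (2.30) but not called in series 2 alone (1.83, adjusted p = 0.117). Klrb1c was rare and overlapped between the lines, with 0 to 0.549 CPM in MCA-948. Its level there was 0.101 to 0.549 CPM in the 4 tumors with the letter W and at most 0.0797 CPM in the 4 with the letter a. In MCA-970 it was 2.26 CPM in W-1D and 2.66 CPM in W-R, the tumors with the most Ptprc. The other MCA-970 tumors, W-2D among them, had 0.15 to 0.373 CPM. The median of the leukocyte list was -0.71 and became 0.06 without the MCA-970 tumor W-1D. It was 1.08 among tumors with the letter a and -1.34 among those with the letter W, so the list has no settled direction.

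Imprinted genes, which are expressed from 1 parental allele, were lower on balance. Of 29 tested, 16 were called lower and 3 higher (median -1.23). The noncoding RNAs of the Dlk1-Dio3 region on chromosome 12 were near absent from MCA-948. Meg3 (chr12:109541001-109571726) was between 0.699 and 5.47 CPM (median 1.53) in MCA-948 and between 257 and 398 CPM (median 344) in MCA-970, a difference of 136-fold on the means. Rian was between 0.524 and 7.07 CPM (median 0.998) in MCA-948 and between 412 and 631 CPM (median 494) in MCA-970, and Mirg was between 0.0499 and 0.458 CPM (median 0.111) in MCA-948 and between 12.9 and 21 CPM (median 16.5) in MCA-970. Dlk1, the paternally expressed gene of the same region, was between 1.95 and 8.87 CPM (median 5.23) in MCA-948 and between 33.7 and 212 CPM (median 62.3) in MCA-970. The residual Meg3 of MCA-948 was highest in a-R, a-2D and a-1G (5.47, 5.21 and 3.73 CPM), which were also the 3 tumors with the most Pecam1 (114, 66.5 and 57.7 CPM), and the part of other cells in this was not tested. MCA-972 resembled MCA-948 in Meg3, with a mean of 1.16 CPM. Ndn, a paternally expressed gene of chromosome 7, was higher in MCA-948 (16.6 to 38.9 CPM against 0.147 to 4.4 CPM), and Kcnq1ot1 was higher by a log2 fold change of 2.64, which was 1.23 in series 2 alone. Mest was lower (-2.95), and Igf2 was not called (-0.60, adjusted p = 0.128).

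Of 48 genes of the TGF-beta and BMP pathway, 28 were called lower and 2 higher (median -1.29), and 18 of the 29 that could be tested were called again in series 2. Among the ligands, Bmp2 was between 12.3 and 44.5 CPM (median 17.9) in MCA-948 and between 119 and 231 CPM (median 190.0) in MCA-970 and Tgfb3 was lower (-1.24), while Tgfb2 was not called (-0.15, adjusted p = 0.477) and Bmp3 was higher, as described above. The receptor genes Tgfbr1 (-0.33) and Tgfbr2 (-0.51) did not reach the threshold. Bambi, a pseudoreceptor that inhibits the pathway, was lower (-3.52), and so was the BMP target Id3 (-1.78). Of 47 Wnt pathway genes, 22 were called lower and 2 higher (median -0.97). Sfrp2, a secreted Wnt modulator, was between 2.38 and 11.4 CPM (median 3.49) in MCA-948 and between 353 and 941 CPM (median 579) in MCA-970. The ligand gene Wnt5a was lower (-2.09, SE 0.15, adjusted p = 3.45e-13) and Wnt10b higher (3.19, SE 0.31, adjusted p = 2.42e-10). The feedback targets Axin2 (-2.33), Notum (-4.02) and Nkd2 (-3.72) and the antagonist Dkk2 (-2.60) were all lower.

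Of 71 growth factors and receptor kinases, 30 were called lower and only Met and 1 other gene higher (median -0.75). Ereg, which encodes the EGF receptor ligand epiregulin, was between 9.14 and 37.9 CPM (median 18.3) in MCA-948 and between 173 and 395 CPM (median 342) in MCA-970. Its receptor gene Egfr lay at the threshold (-1.01) and was called in 6 of the 14 fits that leave out 1 tumor. Epha5 had no count in MCA-948 and was between 1.14 and 3.92 CPM (median 1.91) in MCA-970, at least 25.9-fold higher with 3 counts allowed in each library. Igfbp5, a binding protein of insulin-like growth factors, was lower (-2.97, SE 0.57, adjusted p = 3.72e-05).

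Growth control genes were mixed. Of 41 genes of the p53, Ink4 and Rb pathways, 6 were called lower and 4 higher (median 0.01, with a sign that depended on the setting). These shares (14.6% and 9.76%) were below and near those of all genes tested (19.8% and 9.64%). Trp53 itself (chr11:69580359-69591873), the tumor suppressor gene, was between 0.71 and 4.32 CPM (median 1.36) in MCA-948 and between 21 and 29.6 CPM (median 23.9) in MCA-970, a log2 fold change of -3.54 (SE 0.27, adjusted p = 2.89e-12). The 3 MCA-948 tumors with the most Trp53 were a-R, a-2D and a-1G (4.32, 3.99 and 3.49 CPM), the same that had the most Meg3. In the other lines the means of Trp53 were higher than in either of these, between 93.6 and 142 CPM. Cdkn1a, a p53 target that encodes the inhibitor p21, was lower (-1.55, SE 0.24, adjusted p = 1.3e-06), and Mdm2, another p53 target, did not reach the threshold (0.45). Cdkn2a (-0.51), Cdkn2b (-0.78), Rb1 (-0.12) and Nf1 (0.51) were not called. Of 34 Ras genes and ERK pathway outputs, 9 were called lower and 2 higher (Myc and Rras2). The ERK feedback genes Spry1 (-2.07) and Dusp6 (-1.08) and the ERK target Etv4 (-1.48) were lower, and Rras2 was higher (1.78, SE 0.11, adjusted p = 5.76e-14). Of 40 cell cycle genes, 5 were called higher and none lower, and the share higher (12.5%) was near that of all genes tested (9.64%). A positive log2 fold change was seen for 37, with a median of 0.67 beside -0.05 over all genes. Mki67, the proliferation marker, was between 361 and 471 CPM (median 386) in MCA-948 and between 97 and 143 CPM (median 121) in MCA-970, and Mybl2 was between 53 and 76.5 CPM (median 65.2) in MCA-948 and between 12.3 and 21 CPM (median 14.9) in MCA-970. Top2a was called in the fit of all tumors (1.21) and not in series 2 (0.48), and Cdk1 (0.67) and Pcna (0.34) did not reach the threshold.

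Of 39 glycolysis and hypoxia genes, 3 were called lower, among them P4ha2, and none higher, and Ldha did not reach the threshold in the fit of all tumors (0.79) but did in series 2 (1.18). Of 26 cholesterol genes, 1 was called higher and 1 lower, the latter Abca1, an exporter of cholesterol (-1.77). Of 24 targets of NRF2 and the aryl hydrocarbon receptor tested, 7 were called lower and 1 higher, and 3 of the 8 were called again in series 2 alone. The receptor gene Ahr itself, which binds methylcholanthrene, was the higher one (14.4 to 29.7 CPM against 4.31 to 6.7 CPM), and its target Cyp1b1 was lower (-1.85). Hmox1 was lower in the fit of all tumors (-1.19) and not called in series 2 (-0.46). Genes of mitochondrial DNA took 0.74% to 1.7% of the counts in MCA-948 (median 1.09%) and 0.464% to 0.565% in MCA-970 (median 0.478%), without overlap (exact two-sided permutation test over tumors, p = 0.000666). The 2 MCA-948 tumors of series 2 had 1.16% and 1.23%. Of 13 such genes tested, 9 were called higher, for example mt-Nd1 (1.27, SE 0.16, adjusted p = 4.56e-08) and mt-Co1 (1.14, SE 0.17, adjusted p = 7.91e-07), and 4 of the 8 of these that could be tested were called again in series 2 alone. The gene mt-Nd6 was higher by 2.54 in the fit of all tumors and by 1.06 in series 2 alone.

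Of 11 genes that the study named from its comparison of sensitive with non-sensitive lines, 3 were called between these sensitive lines. This share (27.3%) was close to that of all genes tested (29.4%). All 3 are clustered protocadherins and were higher in MCA-948. Pcdhgb2 was between 52.6 and 71.6 CPM (median 58.5) in MCA-948 and between 17.6 and 24.7 CPM (median 20.8) in MCA-970, Pcdhgb7 was between 17.4 and 23 CPM (median 19.2) in MCA-948 and between 3.13 and 5.35 CPM (median 4.34) in MCA-970, and Pcdhga5 was between 8.93 and 14.5 CPM (median 10.3) in MCA-948 and between 0.699 and 1.45 CPM (median 1.06) in MCA-970. These genes share their last exons with the rest of the cluster, so the assignment of their reads is uncertain, and the study chose the list on these same samples. Rasa4 (-0.89), Tnfsf11 (-0.53) and Ifitm1 were among the 8 that were not called.

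Both lines carried Y-linked RNA and almost no Xist. The Y-linked gene Ddx3y was between 66.2 and 97.2 CPM (median 86.3) in MCA-948 and between 45.4 and 54.5 CPM (median 47.6) in MCA-970, and Xist, the RNA of the inactive X chromosome, was at most 0.245 CPM in any tumor. Of 9 sex chromosome genes tested, 1 was called. It was Eif2s3x (1.30, SE 0.07, adjusted p = 7.5e-16), while Kdm6a (-0.39), Kdm5d (0.79), Eif2s3y (0.79) and Uty (0.57) did not reach the fold threshold.

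**Figure D5:**
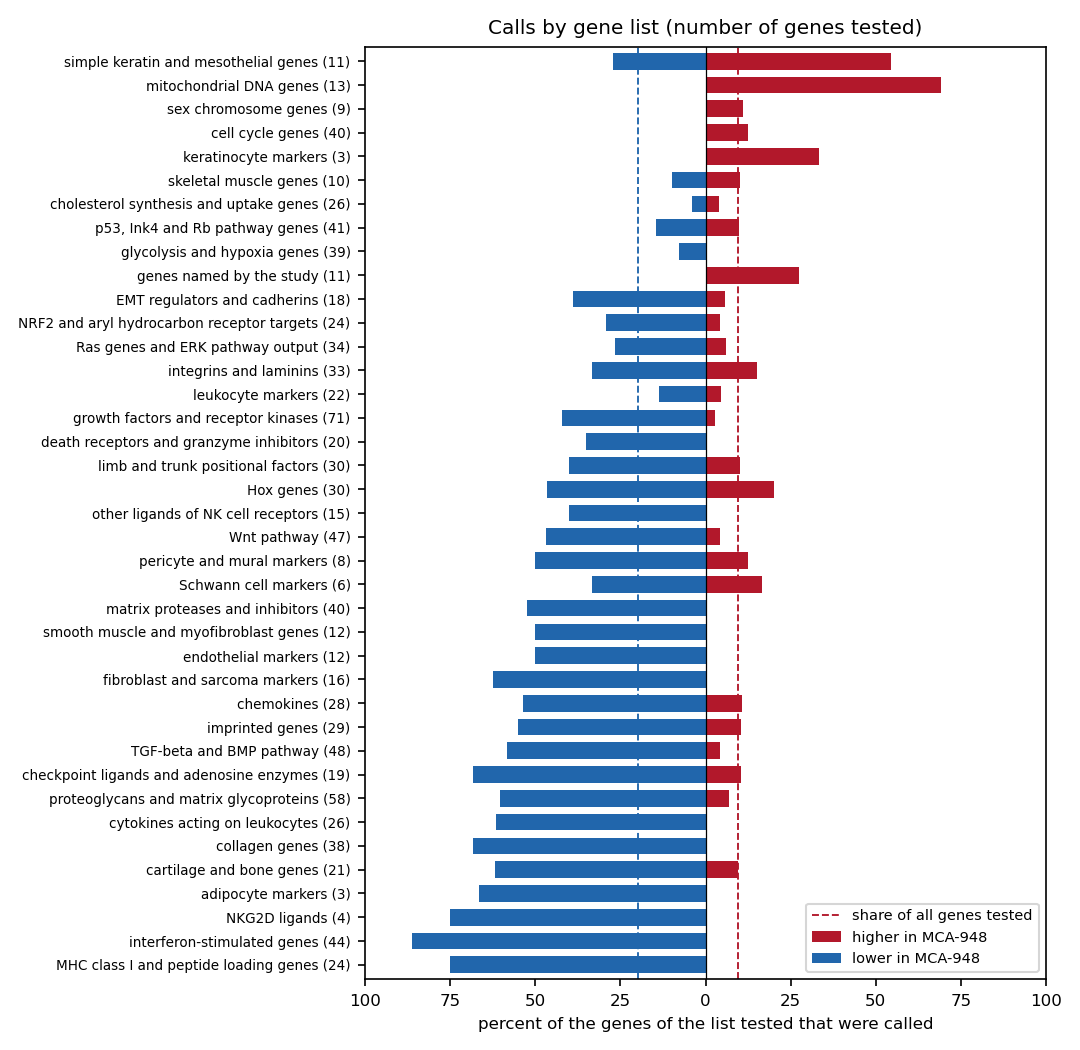
Share of the genes tested in each list (number in brackets) that were called higher in MCA-948 (bars to the right) or lower (bars to the left), in percent, ordered by the median log2 fold change of the list. Dashed lines give the shares among all genes tested, 9.64% higher and 19.8% lower. Interferon-stimulated genes have the largest share lower (86.4%), followed by MHC class I genes and the 4 NKG2D ligands (75%), and mitochondrial DNA genes and simple keratin and mesothelial genes the largest shares higher.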

How the data were processed

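RNA of CD45-depleted tumor cells was sequenced. Per the labels and the study's methods, the authors aligned reads with STAR 2.5.3a to GRCm38 and counted them per gene with featureCounts (1.5.2 in the processing notes), and the column names of the deposited table name aligned files with molecular identifiers and duplicates removed. The deposited file holds these raw counts for 48440 genes in 30 tumors. The strand setting of the counting is not given in the sources used here. Gene names and positions came from GENCODE vM21, which named 48058 of the genes.

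Tumors were grouped by the line in their titles. edgeR 4.0.16 (R 4.3.3) fitted all 30 tumors of 5 lines, so that all lines share 1 estimate of the spread, after filterByExpr and TMM scaling, with the robust quasi-likelihood test of MCA-948 minus MCA-970 and Benjamini-Hochberg adjustment over 16862 genes. Genes with an adjusted p under 0.05 that differed by 1 or more on the log2 scale are termed called. All adjusted p-values in the text are from this fit unless another is named. The steps were tested on simulated data. Counting limits allow 3 counts where none was seen, which is 0.0602 to 0.11 CPM by tumor, and cover counting error only.

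The genes named are the 10 largest log2 fold changes in each direction (symbols of known genes, a mean of at least 10 CPM in the higher line, no overlap), the 5 largest with at least 100 CPM in both lines, and members of 39 gene lists. The lines, lists and named members were chosen with earlier results of these data known. List medians are descriptions without a test. They did not change when genes without a count in a line were set at their bound. The alternatives were DESeq2 1.42.0, limma-voom (limma 3.58.1), other scaling and filters, the 14 tumors alone, library series, index number or title letter as a covariate, subsets of tumors, the title code as a block, and leaving out each tumor. A fit with the MCA-948 tumors of series 2 as a level of their own was added after the data had been seen.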

Additional observations from a re-analysis of the deposited data

Results flagged for a closer look

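In each line, every named gene was searched for a tumor that lay far from all others of the line, relative to the line's range, by Dixon's criterion at the 95% level. Of 466 groups of tumors tested, 20 held such a tumor, and chance gives about 1 in 20 groups. The MCA-970 tumor W-2D was the highest for Sox2 (0.515 CPM), Nlrc5 (35.5), H2-T23 (35.7), Ifit1 (58.9), Iigp1 (59.4), Gbp2 (212), Tnfsf10 (4.53), Tnfrsf10b (56.6) and Kdm6a (69). Several of these are genes of MHC class I or the interferon response, and without this tumor the median log2 fold change of the interferon-stimulated genes was -2.43 in place of -2.65, and that of the MHC class I genes was -3.04 in place of -3.14. The MCA-970 tumor a-1D was the lowest for Spp1 (1949 CPM against a median of 2813), Nt5e (139.8) and Bmp2 (119), and the highest for Timp3 (219) and Hoxc6 (67.6). In MCA-948, the tumor W-1D was the highest for H2-D1 (80.9 CPM) and Cxcl5 (16.4). Further single values were Mmp3 in MCA-970 W-1D (795 CPM), Ldha in MCA-970 a-2G (1117), Ahr in MCA-970 W-R (4.31) and mt-Cytb in MCA-970 a-2D (903). All these tumors were kept in the fits.

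The difference between the lines depended on the letter of the title for Cdh11, the mesenchymal cadherin gene. It was -7.44 on the log2 scale among tumors with the letter W and -4.84 among those with the letter a, and the interaction term of -2.61 had an adjusted p of 0.0128 in edgeR's quasi-likelihood test. Cdh11 was the 1 gene called among 15975 tested for this interaction, and 1489 of them had an unadjusted p under 0.05. The 4 MCA-948 tumors with the letter W belong to series 3, as do 2 of the 4 with the letter a, while the 2 a tumors of series 2 had 17.6 and 13.3 CPM of Cdh11 and those of series 3 had 10 and 15.4 CPM.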

How the results depend on the processing

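Of the 182 called genes named in the text, 155 were called under every alternative in which they were tested, 27 lost the call under at least 1, and none changed sign. The 1626 genes higher and 3333 lower became 2024 and 3933 with DESeq2, 1301 and 2632 with library series as a covariate, 1251 and 2484 in series 2 alone, and 1310 and 2696 in the fit added after seeing the data, where the MCA-948 tumors of series 2 formed their own level. Restricting the fit to genes with a mean of at least 1 CPM gave 948 higher, since fewer genes were tested. Without a fold threshold 5600 were higher and 6183 lower, and with a log2 fold change of at least 2 there were 310 and 1606. Leaving out 1 tumor at a time gave 1567 to 1675 higher and 3251 to 3483 lower. Ptprc, which was not called (-0.98), turned to 0.04 with limma-voom and to 1.28 among tumors with the letter a, and the cause was not tested. Titles with the same letter and code, such as a-2G, recur in both lines. Of 4 such shared titles, 1 gave a negative correlation of deviations (-0.195, the others 0.0731 to 0.411). Among the 4 tumors of the other line, 5 of 8 tumors correlated best with the one of the same title. These values do not settle whether the titles mark pairs, and the main fit used no pairs. With the code without its letter as a replicate block, 1629 genes were higher and 3365 lower. Medians changed sign under some alternative for the leukocyte, p53, glycolysis and study-named lists. Genes near 3 counts per library could not be resolved at this depth.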

Other observations

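The difference between the lines was not even along the genome. Over genes with at least 5 CPM in both lines, the median log2 fold change was 0.07 over all 9570 genes, 0.44 on chromosome 7, 0.40 on chromosome 10 and 0.33 on chromosome 13, against -0.42 on chromosome 6, -0.34 on chromosome 3 and -0.27 on chromosome 14. In series 2 alone the values were 0.48, 0.43, 0.29, -0.41, -0.39 and -0.26 in the same order. Chromosome 6 as a whole was thus lower in MCA-948, although it holds the stretch from Tes to St7. Of its 912 genes tested, 288 were called lower and 53 higher. Calls lower also outnumbered calls higher over all 16862 genes (3333 against 1626). The same held on chromosome 3 (242 against 58 of 943 genes tested) and on chromosome 14 (149 against 21 of 554). On chromosomes 7 (146 lower against 203 higher) and 13 (78 lower against 102 higher) calls higher were more frequent. The lean of chromosome 6 was thus shared by some chromosomes and not by others, and its median was the lowest of any chromosome.

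Runs of 5 neighboring genes with a mean of at least 5 CPM in the higher line were ranked by their median log2 fold change, which gave 10643 runs. Neighboring runs share genes, and the ranks given here are among runs that share no gene with each other. After the run from Cav2 to St7 (4.46) and the one just upstream of it that ends at Tes (2.26), the next highest of these was on chromosome 4 with Mfsd2a, Mycl, Trit1, Ppie and Pabpc4 (1.84). It holds Mycl, a relative of Myc. The lowest run held H2-D1, H2-Q4, H2-Q5, H2-Q6 and H2-Q7 on chromosome 17 (-7.97), followed by Meg3, Rian, Mirg, Ppp2r5c and Dync1h1 on chromosome 12 (-6.70) and by Obsl1, Stk11ip, Slc4a3, Epha4 and Farsb on chromosome 1 (-5.41). The run from Psmb9 to Notch4 on chromosome 17, which includes Tap1, Psmb8 and Tap2, had a median of -4.95. These runs were chosen by their values, so they are descriptions without a test.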
